A study of Homo sapiens with 4 samples.

Results

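MDM2, MDM4 and 7 genes that p53 is known to activate, namely SESN1, GADD45A, GADD45B, BTG2, PERP, RRM2B and ZMAT3, were followed in untreated cells labelled HepG2, with and without ZCCHC4. They were taken by gene symbol from a table of 16658 genes, and all 9 were found and reached the level set for testing. RNA was sequenced from wildtype cells (WT) and from the untreated knockout line ZCCHC4 KO1, with 2 libraries per group. HepG2 is a line established from a human liver tumor, and ZCCHC4 KO1 is 1 of the lines in which the study knocked out ZCCHC4, an rRNA methyltransferase, by CRISPR/Cas9, so effects of the knockout and of that line cannot be told apart. Nothing in the labels says that the 2 libraries of a group came from separate cultures, and the p-values below measure only the spread between libraries.

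p53 is a transcription factor that is kept scarce in unstressed cells and accumulates after DNA damage. MDM2 is the ubiquitin ligase that marks p53 for degradation, and it is itself a p53 target, which closes a feedback loop. MDM4 binds p53 and blocks its activity without being an efficient ligase on its own. The other genes serve arrest, repair, antioxidant defence and cell death downstream of p53.

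ZCCHC4 was at 7.22 and 5.44 FPKM (fragments per kilobase of transcript, scaled to the mapped fragments of the library) in WT and at 1.08 and 2.29 FPKM in ZCCHC4 KO1. Its log2 fold change was -1.48 (standard error, SE, 0.287, limma adjusted p = 0.0448, by Benjamini-Hochberg over 10726 genes), and without ZCCHC4 KO1 replicate 1 the fold change was -1.15 and the adjusted p 0.0514, within a range of 5.44e-06 to 0.115 over 13 other settings of the fit (scaling, filters, blocking, GC removal and left-out libraries). All fold changes here are ZCCHC4 KO1 minus WT on the scale of log2(FPKM + 1), on which changes of weakly expressed genes appear too small. Genes typical of hepatocytes were nearly absent from these libraries labelled HepG2. Of 15 such genes 9 were listed, each below 1 FPKM in every library, with sums of 0.62 to 0.85 FPKM per library. These values go against the label, and the identity of the line was not tested further. The sum of an epithelial list was 5243.62 and 6095.28 FPKM for the WT libraries, below the 9260.13 and 7069.52 of the ZCCHC4 KO1 libraries, nearly all of it from the keratins KRT7, KRT8 and KRT18, whereas EPCAM, CDH1 and KRT19 were at 0.60 or less. A fibroblast list summed to 18.99 to 20.19 FPKM in WT and to 8.61 to 11.81 in ZCCHC4 KO1, most of it COL3A1, with COL1A2 at 0 to 0.01. The part of either list in the differences below was not tested. Blood cell and endothelial lists summed to 1.58 FPKM or less and to 0.74 or less. Marker sums and gene levels are those of a bulk sample, in which fewer cells of a type and less RNA per cell cannot be told apart.

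The promoter sequences of MDM2, SESN1 and PERP are shown because the first and second hold a match to the p53 response element and the third belongs to the gene with the clearest difference. The windows of 300 bases run from 250 bases before to 50 bases after a transcription start and come from RefSeq (GRCh38.p14), which gave 13 windows for 7 of the 9 genes, GADD45A and RRM2B having no entry. They were searched for the p53 response element, taken as a pair of adjoining p53 half-site consensus sequences, 20 bases in all, with at most 3 mismatches. The consensus reads the same on both strands, so each match counts for both. A match was found in 3 of the 13 windows, 2 of them overlapping windows of MDM2, against 5.20% of 35116 windows in the genome-wide table. The MDM2 window, chr12:68808767-68809066 on the plus strand, lies in the first intron of the GENCODE v44 canonical transcript, between exon 1, which ends at 68808491, and exon 2, which starts at 68809208. This internal promoter is known for its response to p53. Its matches lie at 68808923 to 68808942 with 2 mismatches and at 68808961 to 68808980 with 3. The SESN1 window, chr6:109008939-109009238 on the minus strand, likewise lies in the first intron of the canonical transcript and holds a match at 109009018 to 109009037 with 3 mismatches. The PERP window, chr6:138107370-138107669 on the minus strand, takes in the start of exon 1 and holds no match. Capitals mark the matches, which are a description of the letters and not evidence of binding.
MDM2: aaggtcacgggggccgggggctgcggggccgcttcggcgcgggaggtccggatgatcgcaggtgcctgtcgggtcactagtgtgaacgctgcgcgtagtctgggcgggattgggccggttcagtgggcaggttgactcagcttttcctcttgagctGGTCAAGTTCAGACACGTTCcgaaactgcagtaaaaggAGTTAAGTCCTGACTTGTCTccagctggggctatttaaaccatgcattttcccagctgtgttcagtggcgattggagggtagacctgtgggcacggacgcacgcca
SESN1: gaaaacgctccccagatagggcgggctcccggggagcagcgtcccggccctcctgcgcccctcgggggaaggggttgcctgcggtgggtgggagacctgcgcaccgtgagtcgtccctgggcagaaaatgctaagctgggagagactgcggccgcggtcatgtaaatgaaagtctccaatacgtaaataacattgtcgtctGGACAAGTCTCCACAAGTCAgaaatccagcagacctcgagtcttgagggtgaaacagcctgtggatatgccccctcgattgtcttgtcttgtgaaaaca
PERP: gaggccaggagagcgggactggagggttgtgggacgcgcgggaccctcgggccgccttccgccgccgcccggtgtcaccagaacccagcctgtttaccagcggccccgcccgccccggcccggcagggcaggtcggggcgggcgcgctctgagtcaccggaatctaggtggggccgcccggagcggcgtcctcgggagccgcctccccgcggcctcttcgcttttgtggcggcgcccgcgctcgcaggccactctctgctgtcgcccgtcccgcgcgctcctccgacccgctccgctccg

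Of the 9 genes, 1 fell and none rose in ZCCHC4 KO1 cells at an adjusted p under 0.05. Among all 10726 genes tested, 4.48% were lower and 1.5% higher by that rule. The gene that fell was PERP, and at an unadjusted p under 0.05 limma gave 2 higher genes, GADD45A and GADD45B, and 2 lower ones, PERP and ZMAT3, beside 8.96% of all tested genes higher and 13.9% lower. At stricter thresholds, an adjusted p under 0.001 together with a 2-fold change, none of the 9 genes was called in either direction, beside 0.0186% of all tested genes higher and 0.0559% lower. Both ZCCHC4 KO1 libraries were above both WT libraries for 2 of the 9 genes and below them for 3, and the same held for 23.1% and 28.5% of all tested genes. The median log2 fold change of the 9 genes was -0.03, and that of all tested genes was -0.03 as well. The members did not move one way, with 4 fold changes above and 5 below 0, from -1.58 for PERP to 0.73 for GADD45A.

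**Figure D1:**
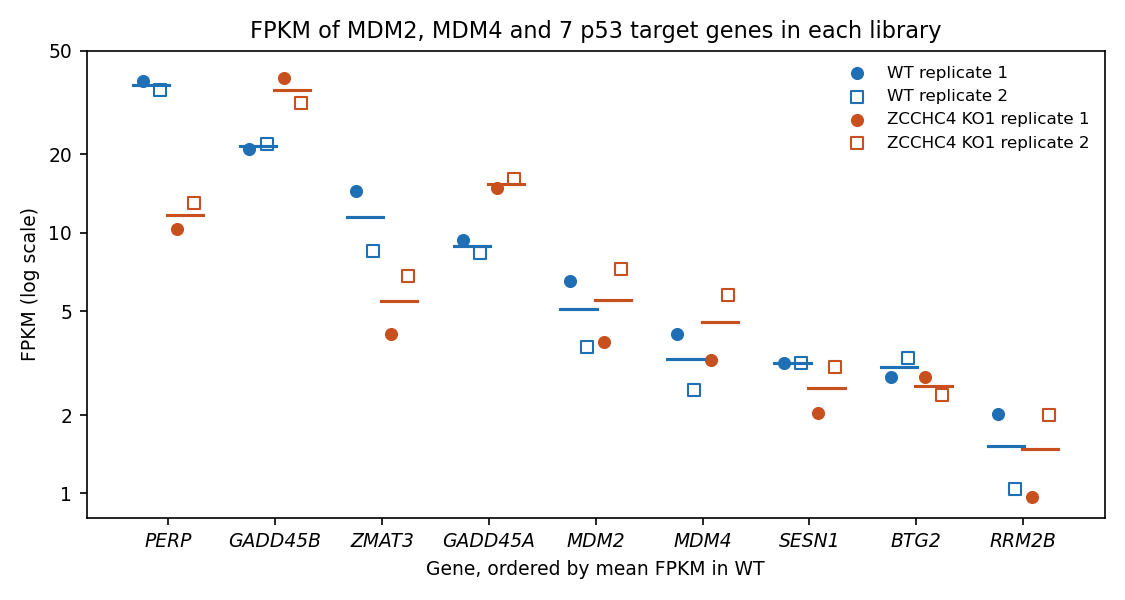
FPKM of MDM2, MDM4 and 7 p53 target genes in each of the 4 libraries, on a log axis, with genes ordered by mean FPKM in WT. Points are libraries and short lines are group means of 2 libraries. PERP is lower and GADD45A and GADD45B are higher in both ZCCHC4 KO1 libraries, while the replicates of MDM2, MDM4 and RRM2B lie as far apart as the groups.

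PERP, a tetraspan membrane protein of desmosomes that p53 induces during apoptosis, was the most abundant of the 9 genes in WT. It was at 38.22 and 35.37 FPKM in WT and at 10.38 and 13.04 FPKM in ZCCHC4 KO1. Both knockout libraries were far below both WT libraries, and the replicates of each group lay close together. The mean was 36.8 ± 2.02 FPKM in WT and 11.7 ± 1.88 FPKM in ZCCHC4 KO1 (SD, n = 2 each), a 3.14-fold lower mean level. The log2 fold change of PERP was -1.58 (SE 0.172, 95% confidence interval -2.0 to -1.16, adjusted p = 0.0110 from limma). PERP passed an adjusted p of 0.05 under each of the 13 other settings, with fold changes from -1.73 to -1.43 and limma adjusted p-values of at most 0.0350. The gene lies on chromosome 6 from 138088505 to 138107419, and the 20 tested genes nearest to it had a median of -0.06 in log2 fold change, 8 being above and 12 below 0.

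The stress-inducible GADD45 genes had higher values in ZCCHC4 KO1. GADD45A, whose protein binds PCNA and CDK1 and acts in arrest and repair, was at 9.43 and 8.34 FPKM in WT and at 14.84 and 16.03 FPKM in ZCCHC4 KO1. The groups of GADD45A did not overlap, and its mean FPKM was 1.74-fold higher in ZCCHC4 KO1, at a log2 fold change of 0.73 (SE 0.173, 95% confidence interval 0.31 to 1.16, adjusted p = 0.0708 from limma). GADD45B, a related protein that also acts upstream of the p38 and JNK kinases, was at 21.02 and 22.02 FPKM in WT and at 39.16 and 31.43 FPKM in ZCCHC4 KO1. Its groups did not overlap either, and its mean FPKM was 1.64-fold higher, at a log2 fold change of 0.68 (SE 0.164, 95% confidence interval 0.28 to 1.09, adjusted p = 0.0748 from limma). Neither passed an adjusted p of 0.05 as deposited. Both passed where the trend on GC content was removed from each library (adjusted p = 0.0182 for GADD45A and 0.00820 for GADD45B from limma), and also with FPKM rescaled by median ratios or quantile normalized. Over the 13 other settings the adjusted p ranged from 0.0182 to 0.536 for GADD45A and from 0.00820 to 0.436 for GADD45B. Without ZCCHC4 KO1 replicate 2, GADD45B passed with an adjusted p of 0.0131. GADD45A lies on chromosome 1 from 67685201 to 67688334, among genes with a median log2 fold change of -0.20. GADD45B lies on chromosome 19 from 2476127 to 2478257, where 15 of the 20 nearest tested genes were above 0 with a median of 0.24, and the part of these surroundings in its value was not tested.

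ZMAT3, a zinc finger protein that binds RNA, was at 14.48 and 8.53 FPKM in WT and at 4.09 and 6.82 FPKM in ZCCHC4 KO1. Both knockout libraries were below both WT libraries, but the replicates of each group differed widely. The mean was 11.5 ± 4.21 FPKM in WT and 5.46 ± 1.93 FPKM in ZCCHC4 KO1 (SD, n = 2 each), and the log2 fold change of -0.94 (SE 0.327, 95% confidence interval -1.75 to -0.14) did not pass the test (adjusted p = 0.16 from limma). ZMAT3 passed with median-ratio scaling and with the GC trend removed (adjusted p = 0.0123 and 0.0125 from limma). The fold changes were then smaller, at -0.89 and -0.90, with an SE of 0.255 and 0.185. With median-ratio scaling limma gave the spread of ZMAT3 itself little weight. Without ZCCHC4 KO1 replicate 2 the fold change of ZMAT3 was -1.25. Its adjusted p ranged from 0.0123 to 0.760 over the 13 other settings, and its fold change from -1.29 to -0.60. The 20 tested genes nearest to ZMAT3, on chromosome 3 from 179017223 to 179072513, had a median log2 fold change of 0.02.

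MDM2 was at 6.53 and 3.65 FPKM in WT and at 3.82 and 7.26 FPKM in ZCCHC4 KO1. The groups overlapped almost completely, and each group held a high and a low library. The log2 fold change of MDM2 was 0.09 (SE 0.358, limma adjusted p = 0.915), with a 95% confidence interval of -0.79 to 0.98 that leaves room for a change in either direction. It turned to -0.26 when WT replicate 2 was left out and to -0.30 when ZCCHC4 KO1 replicate 2 was. MDM4 was at 4.09 and 2.49 FPKM in WT and at 3.26 and 5.80 FPKM in ZCCHC4 KO1, so its groups overlapped too. Its log2 fold change was 0.35 (SE 0.315, 95% confidence interval -0.42 to 1.13, adjusted p = 0.580 from limma). MDM2 lies on chromosome 12 from 68808172 to 68850686 and MDM4 on chromosome 1 from 204516406 to 204558120. Of the 20 tested genes nearest to MDM4, 18 were below 0, with a median of -0.16.

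The libraries with the higher MDM2 level in each group also had the higher MDM4 level, and the ratio of both genes varied less between replicates than either gene. The ratio of MDM2 to MDM4 FPKM was 1.6 and 1.47 for the WT libraries, against 1.17 and 1.25 for those of ZCCHC4 KO1. MDM2 was thus above MDM4 in all 4 libraries, and by a smaller factor in both knockout libraries. The mean ratio was 1.53 ± 0.0924 in WT and 1.21 ± 0.0565 in ZCCHC4 KO1 (SD, n = 2 each), a difference of -0.34 in the log2 ratio. An exact two-sided permutation test gave p = 0.333, the smallest p that 2 libraries against 2 can give. The difference in the log2 ratio was between -0.40 and -0.26 with each library left out, a pseudocount of 0.1, quantile normalization or removal of the GC trend.

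The 3 remaining target genes had the lowest levels and differed by less than the spread allows to resolve. SESN1, which encodes a sestrin that restrains mTORC1 and supports peroxiredoxins, was at 3.18 and 3.17 FPKM in WT and at 2.03 and 3.05 FPKM in ZCCHC4 KO1. Its log2 fold change was -0.25 (95% confidence interval -0.80 to 0.29, adjusted p = 0.567 from limma), although both knockout libraries were below both WT libraries. BTG2, an antiproliferative partner of the CCR4-NOT deadenylase, was at 2.79 and 3.32 FPKM in WT and at 2.79 and 2.39 FPKM in ZCCHC4 KO1. Its log2 fold change was -0.17 (95% confidence interval -0.66 to 0.31, adjusted p = 0.664 from limma). The median of its 20 nearest tested genes was -0.20, with 17 of them below 0. They start from 202133404 to 204422633 on chromosome 1, a stretch that overlaps the one around MDM4. The part of these surroundings in the value of BTG2 was not tested. RRM2B, the p53-inducible small subunit of ribonucleotide reductase, was at 2.01 and 1.04 FPKM in WT and at 0.97 and 2.0 FPKM in ZCCHC4 KO1. The groups of RRM2B overlapped, and its log2 fold change was -0.03 (95% confidence interval -0.76 to 0.71, adjusted p = 0.971 from limma).

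**Figure D2:**
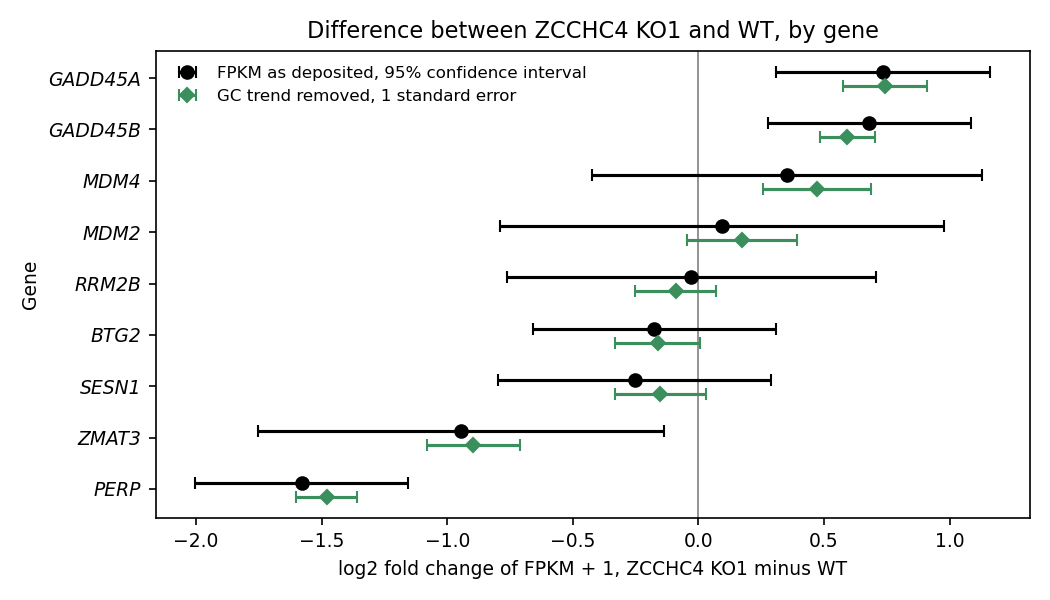
Log2 fold change of each of the 9 genes, ZCCHC4 KO1 minus WT, on the log2(FPKM + 1) scale. Black points are FPKM as deposited with 95% confidence intervals from limma, and green diamonds are the values after the GC trend was removed, with 1 standard error. PERP at -1.58 lies farthest from 0, and the intervals of MDM2, MDM4, RRM2B, BTG2 and SESN1 include 0.

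The differences between replicates went with the GC content of the transcripts. MDM2, MDM4, RRM2B and ZMAT3, with GC contents of 35.1% to 42.3%, were higher in WT replicate 1 than in replicate 2 and lower in ZCCHC4 KO1 replicate 1 than in replicate 2. For MDM2 the difference of replicate 2 from replicate 1 in log2(FPKM + 1) was -0.70 in WT and 0.78 in ZCCHC4 KO1. GADD45B, with the highest GC content at 57.4%, went the other way, at 0.06 and -0.31, and so did BTG2 at 50.5%, at 0.19 and -0.16. GADD45A, at 50.7% GC, did not, and differed in the direction of the low-GC genes, at -0.16 and 0.10. Over 10559 tested genes the Spearman correlation of GC content with this difference was 0.725 in WT and -0.784 in ZCCHC4 KO1, across genes that are not independent. With the GC trend removed, the differences of MDM2 between replicates were -0.37 and 0.40, and its log2 fold change was 0.17 with an SE of 0.218 in place of 0.358. PERP and SESN1, at 40.4% and 40.6% GC, differed less between the WT replicates than MDM2 at 39.5%, so genes of like GC content did not all vary alike.

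With the GC trend removed, 2 of the 9 genes rose, GADD45A and GADD45B, and 2 fell, PERP and ZMAT3, at an adjusted p under 0.05, beside 8.01% of all tested genes higher and 13.5% lower. With median-ratio scaling the same 4 genes passed in the same directions, beside 3.93% higher and 7.05% lower overall. With quantile normalization GADD45A, GADD45B and PERP passed, beside 4.52% and 7.04%. Among all genes called, 25.1% were higher as deposited, 35.8% with median ratios, 39.1% after quantile normalization and 37.3% after GC removal.

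**Figure D3:**
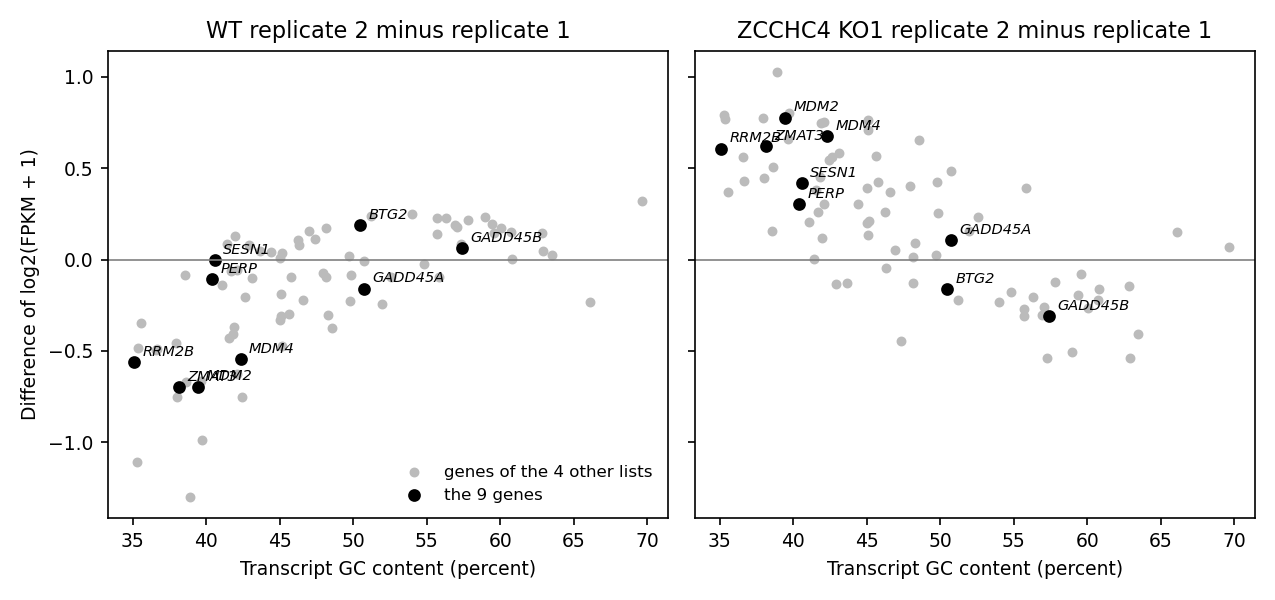
Difference of log2(FPKM + 1) between replicate 2 and replicate 1 against transcript GC content in percent, for WT (left) and ZCCHC4 KO1 (right). Black points are the 9 genes and grey points the tested genes of the 4 other lists. In WT the low-GC genes MDM2, MDM4, RRM2B and ZMAT3 lie below 0, and in ZCCHC4 KO1 they lie above 0, as far as 0.78 for MDM2.

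FPKM is scaled by transcript length, so the levels of the genes were set side by side. It is not scaled by GC content, which ran from 35.1% for RRM2B to 57.4% for GADD45B. The part of GC content in the order was not tested. In WT the order by mean FPKM was PERP, GADD45B, ZMAT3, GADD45A, MDM2, MDM4, SESN1, BTG2 and RRM2B. In ZCCHC4 KO1 it was GADD45B, GADD45A, PERP, MDM2, ZMAT3, MDM4, BTG2, SESN1 and RRM2B. PERP thus stood in place 1 in WT and in place 3 in ZCCHC4 KO1, and its libraries did not overlap with those of its neighbours in either order. In WT the libraries of ZMAT3 and GADD45A overlapped, and so did those of each neighbouring pair from MDM2 to BTG2. In ZCCHC4 KO1 the libraries of MDM2 and ZMAT3, of ZMAT3 and MDM4, and of BTG2 and SESN1 overlapped. RRM2B was below all the others in both groups, at 1.53 and 1.49 FPKM on average.

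The genes with the profile closest to that of PERP over the 4 libraries, by Euclidean distance of centred log2(FPKM + 1) values, were TSC22D1 (distance 0.0659), TBX3 (0.0716) and HOXB8 (0.0789). TSC22D1 was at 35.76 and 34.04 FPKM in WT and at 9.36 and 12.49 FPKM in ZCCHC4 KO1. TBX3 was at 10.09 and 9.45 FPKM in WT and at 2.40 and 2.93 FPKM in ZCCHC4 KO1. HOXB8 was at 3.28 and 3.20 FPKM in WT and at 0.33 and 0.63 FPKM in ZCCHC4 KO1. At such low levels the added 1 FPKM makes a larger relative drop look like that of PERP. The profile of MDM2 was closest to those of IPMK (distance 0.0274), CCNT2 (0.0402) and SPAST (0.0432). IPMK was at 2.66 and 1.28 FPKM in WT and at 1.32 and 2.95 FPKM in ZCCHC4 KO1, with the same high and low libraries as MDM2.

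Of 35 other well-known p53 targets 32 were tested, and 1 rose and 1 fell at an adjusted p under 0.05. Among all tested genes 1.5% rose and 4.48% fell. The median log2 fold change of these targets was -0.14, against -0.03 over all tested genes. At an unadjusted p under 0.05, 4 of the targets were higher and 7 lower, where 8.96% and 13.9% of all tested genes were. The gene that rose was GDF15, a secreted stress cytokine, at 7.41 and 7.69 FPKM in WT and at 22.37 and 15.07 FPKM in ZCCHC4 KO1, a log2 fold change of 1.18 (SE 0.228, limma adjusted p = 0.0444). Its call was lost without WT replicate 1, WT replicate 2 or ZCCHC4 KO1 replicate 1, at fold changes of 1.16, 1.20 and 0.91. The SE was then 0.387, 0.403 and 0.238, the first 2 set by genes of like level and not by its own spread. The call of GDF15 was also lost with no filter on low values (limma adjusted p = 0.0966). Over the 13 other settings its adjusted p ranged from 0.000195 to 0.0966. The gene that fell was TNFRSF10B, a death receptor for TRAIL, at 25.61 and 25.98 FPKM in WT and at 13.01 and 13.23 FPKM in ZCCHC4 KO1, a log2 fold change of -0.92 (SE 0.147, limma adjusted p = 0.0264). With 1 library left out, its call was lost without WT replicate 1 or WT replicate 2. Its fold change was then nearly unmoved, at -0.93 and -0.91, with an SE of 0.371 and 0.385. In both fits limma took the SE from genes of like level and not from the spread of TNFRSF10B itself. Over those of the 13 other settings that left out no library, its limma adjusted p ranged from 0.000520 to 0.0891. Of the 20 tested genes nearest to TNFRSF10B, 19 were below 0, with a median of -0.32, and the part of these surroundings was not tested.

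Upstream of p53, none of 21 tested regulators passed an adjusted p of 0.05 with limma, among them damage kinases, acetyltransferases, ubiquitin ligases and the ribosomal proteins that bind MDM2. At an unadjusted p under 0.05, 0 were higher and 2 lower (8.96% and 13.9% of all tested genes). With the GC trend removed, 1 regulator was higher and 2 lower at an adjusted p under 0.05 (8.01% and 13.5% of all tested genes). The fold changes of the 21 regulators lay between -0.77 and 0.39, with a median of 0.02. Of 16 cell cycle genes that are repressed when p53 is active, none passed with limma, while 0 were higher and 4 lower at an unadjusted p under 0.05 (again 8.96% and 13.9% of all tested genes). With the GC trend removed 1 of the 16 was higher and 3 lower, where 8.01% and 13.5% of all tested genes were. Their fold changes had a median of -0.09, with 8 above and 8 below 0.

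Among relatives of the 9 genes, 7 paralogs and partner subunits, 5 were tested. Of these, 2 fell and none rose, beside 4.48% lower and 1.5% higher of all tested genes. The median log2 fold change of the 5 was -0.91, against -0.03 over all tested genes. BTG3, a relative of BTG2, was at 51.72 and 48.08 FPKM in WT and at 13.84 and 21.24 FPKM in ZCCHC4 KO1, a log2 fold change of -1.49 (SE 0.220, limma adjusted p = 0.0226). It lies on chromosome 21, where 15 of its 20 nearest tested genes were below 0 with a median of -0.51. These 20 genes spread over 22.9 Mb, and the part of these surroundings was not tested. RRM2, the cell cycle-regulated small subunit that RRM2B can replace in ribonucleotide reductase, was at 109.38 and 105.07 FPKM in WT and at 49.21 and 61.11 FPKM in ZCCHC4 KO1. RRM2 had a log2 fold change of -0.95 (SE 0.152, limma adjusted p = 0.0264), with an adjusted p of 0.0623 without WT replicate 1. Both relatives lost their calls with no filter on low values (adjusted p = 0.0669 for BTG3 and 0.0641 for RRM2 from limma, the highest over the 13 other settings). SESN2, a relative of SESN1 and also on the list of other targets, was named after its values were seen, at 3.10 and 3.53 FPKM in WT and at 3.43 and 3.20 FPKM in ZCCHC4 KO1.

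**Figure D4:**
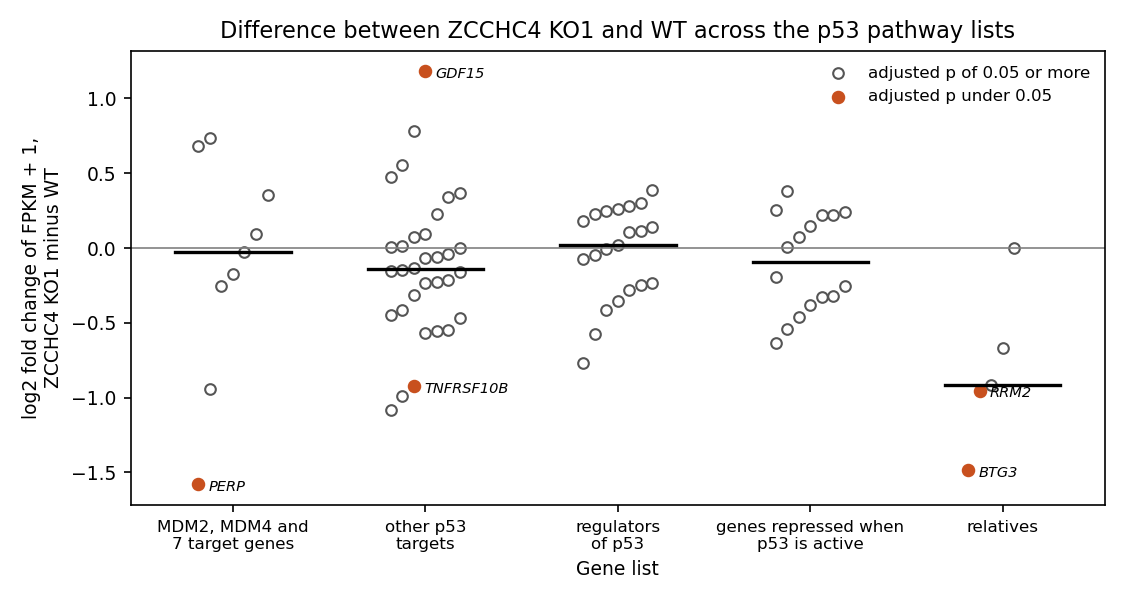
Log2 fold change, ZCCHC4 KO1 minus WT on the log2(FPKM + 1) scale, of every tested gene of the 5 lists. Each circle is a gene, filled where its adjusted p from limma was under 0.05, and black lines are list medians. Filled circles are PERP at -1.58, GDF15 at 1.18, TNFRSF10B at -0.92, BTG3 at -1.49 and RRM2 at -0.95.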

How the data were processed

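RNA-seq of 2 WT and 2 ZCCHC4 KO1 libraries of untreated cells labelled HepG2 was used. Reads were aligned to GRCh38 with Bowtie2 and quantified with RSEM by the authors, who deposited FPKM values. Versions, annotation and read filters are not given in the sources used here, and FPKM carries no read totals, so the depth and counting error are unknown. All 4 columns carry sample titles. Entrez identifiers were matched to RefSeq (GRCh38.p14), and 16384 of 16658 had a symbol.

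Genes with an FPKM of at least 1 in 2 or more libraries (10726) entered a limma fit on log2(FPKM + 1) (version 3.58.1, R 4.3.3; lmFit, eBayes with a trend, Benjamini-Hochberg adjustment over all of them). Rose and fell mean an adjusted p under 0.05. The fit was run on simulated data with independent noise for each gene and library. Those data lack the GC trend of these libraries, so they cannot say how the fit behaves under it. GC content came from GENCODE v44 canonical transcripts for 98.4% of tested genes, and its trend was removed per library with a natural spline of 4 degrees of freedom. The 13 other settings were a pseudocount of 0.1, no filter, a minimum FPKM of 5, median-ratio scaling, quantile normalization, eBayes without the trend, the replicate number as a block, GC removal, block and GC removal together, and each library left out in turn. With 1 library left in a group, that library is assumed to vary like the others. The fit draws the variance of each gene toward a trend shared by all genes, with a weight in prior degrees of freedom. These were 3.78 as deposited and 72.4 with median-ratio scaling. They were infinite without WT replicate 1 or 2 and with the replicate block, so the spread of each gene itself did not count there.

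The 9 genes and all lists were chosen with earlier results of these data known. Named genes are the 9, ZCCHC4, up to 5 genes per list with an adjusted p under 0.05, and the 3 closest profiles of MDM2 and of called members. The gene for p53 itself is not reported here.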

Additional observations from a re-analysis of the deposited data

How the results depend on the processing

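At an adjusted p under 0.05, 1 of the 9 genes was called in the deposited values, 4 after median-ratio scaling, 3 after quantile normalization, 4 after GC removal, 4 with the replicate block and the GC trend removed (14.9% of all tested genes), and 1 to 3 with 1 library left out. The 3 came without ZCCHC4 KO1 replicate 2, where 14.9% of all tested genes were called, against 3.45% to 5.45% without any other library. At an adjusted p under 0.001 and a 2-fold change, PERP was called in place of none under some settings with all 4 libraries. They included median-ratio scaling, quantile normalization and GC removal. The same held for the replicate block with or without GC removal. The share of all tested genes past these thresholds was not counted under these settings. Over the settings that left out 1 library each, the 2 calls among other p53 targets became 0 to 7, the 0 among regulators 0 to 2, the 0 among repressed genes 0 to 4 and the 2 among relatives 1 to 4. Other targets called numbered 1 with no filter, 5 each after median-ratio scaling and quantile normalization, 8 after GC removal and 5 with the replicate block added. Regulators numbered 1, 3 and 2 with quantile normalization, GC removal and both GC removal and block, and repressed genes 2, 4 and 2. Relatives numbered 0 with no filter, 4 after quantile normalization and 4 after GC removal. For each of these counts the cause was not tested.

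For ZCCHC4 the fold change was -1.92 at a pseudocount of 0.1 and -1.48 without the filter on low values, in neither case past the test, and ranged from -1.81 to -1.15 with 1 library left out. That of RRM2B turned to 0.010 after median-ratio scaling and to 0.055 after quantile normalization, and ranged from -0.33 to 0.28 with 1 library left out, and that of MDM2 from -0.30 to 0.48. The median over all tested genes was -0.13 without ZCCHC4 KO1 replicate 2, against -0.03.

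With the replicate block alone 1 of the 9 genes was called, beside 4.31% of all tested genes. TNFRSF10B was not called there (limma adjusted p = 0.0891). The labels share only the numbers, and the replicate differences of the groups had a Pearson correlation of -0.787 across genes. With a crossed pairing, chosen after the values had been seen, 5 of the 9 genes were called, 1 at the stricter thresholds, and 16 other targets, 8 regulators, 10 repressed genes and 4 relatives, beside 49.4% of all tested genes.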
